A study of Mus musculus with 18 samples.

Results

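Thyrocytes, the hormone-producing cells that line the follicles of the thyroid, are specified and kept in their identity by a small set of transcription factors acting together. This set is Nkx2-1, Pax8, Foxe1, Hhex and Glis3. The thyrotropin receptor Tshr, the kidney-type cadherin Cdh16 and the potassium channel subunits Kcnq1 and Kcne2 mark the differentiated state at the cell surface. Expression of these 9 genes was examined in mouse thyroid after partial thyroidectomy. Members were all gene probes carrying 1 of the 9 names, with Titf1 taken as the older name of Nkx2-1. This gave 13 of the 41174 gene probes on the arrays. Of the 9 genes, 6 had a probe that passed the filter on low signal (Cy5 well above background on at least 3 of 18 arrays) and were tested among 14664 genes.

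The captured tissue fell into 4 groups, all from male C57BL/6 mice. They were the central area of the lobe of dissected thyroid, that is after partial thyroidectomy (n = 5), the peripheral area of dissected thyroid (n = 5), the central area of normal thyroid (n = 5) and the peripheral area of normal thyroid (n = 3). Each area was cut from frozen sections by laser capture, its RNA was amplified, and it was hybridised in Cy5 to 1 array against a common Cy3 reference. The labels give neither the interval after surgery nor the mouse behind each area, so areas may share animals. The p-values over areas may then be too small, or too large where the areas compared come from the same mice.

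In Cy5, an array had 24.7% to 44.0% of its gene probes well above background. On 4 arrays (dissected central 1 and 2, dissected peripheral 1 and normal peripheral 1) the share was 24.7% to 29.5%, against 35.2% to 44.0% on the other 14. Thyroglobulin (Tg), the precursor of thyroid hormone and a defining marker of thyrocytes, had Cy5 intensities of 164725 to 440022 at the first of its probes, whereas Slc5a5, the iodide transporter, did not pass the filter. Of 39 markers of endothelial cells, fibroblasts, skeletal muscle, fat, macrophages, airway epithelium and parathyroid, 33 were measured and 0 were called in any of the 4 comparisons below, as were 0 of 7 measured thyrocyte markers. Pth, which marks parathyroid, reached a Cy5 intensity of 58276 on normal central 3 and at most 122 on the other 17 arrays. Other marker lists also stood out on single arrays. Summed normalized Cy5 of the 5 measured airway markers was 44996 on dissected central 1 and 47707 on dissected peripheral 4, against 978 to 21735 on the others. That of the 4 skeletal muscle markers was 18770 on dissected central 2, against 462 to 4649 on the others.

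The reference channel did not match its label. The labels describe a commercial RNA mixture of Swiss Webster mice that covers liver, kidney, lung, heart, brain and spleen, the gonads, the thymus and whole embryos, with no thyroid. In Cy3, however, Tg had a median intensity of 79100 and Pth 2142, and both were well above background on 18 of 18 arrays. Pth in Cy3 stayed between 729 and 2743 on every array, normal central 3 included. None of 7 liver genes, 6 testis genes, 5 heart genes or 3 embryonic genes was above background in Cy3 on all 18 arrays, and the highest median among them was 82.5. Albumin (Alb), the main liver transcript, had a median Cy3 of 67.3. Of 6 brain genes, 3 were above background on all arrays, with Mbp the brightest at 2586, and 1 each of 4 lung genes, 4 kidney genes and 5 thymus and spleen genes was. These tissue genes were chosen after the data were seen. Cy5 and Cy3 intensities correlated across probes at 0.903 to 0.984 within an array. A log2 ratio near 0 below therefore sets captured thyroid against a reference that itself carried thyroid transcripts. What the reference contained was not tested further.

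**Figure D1:**
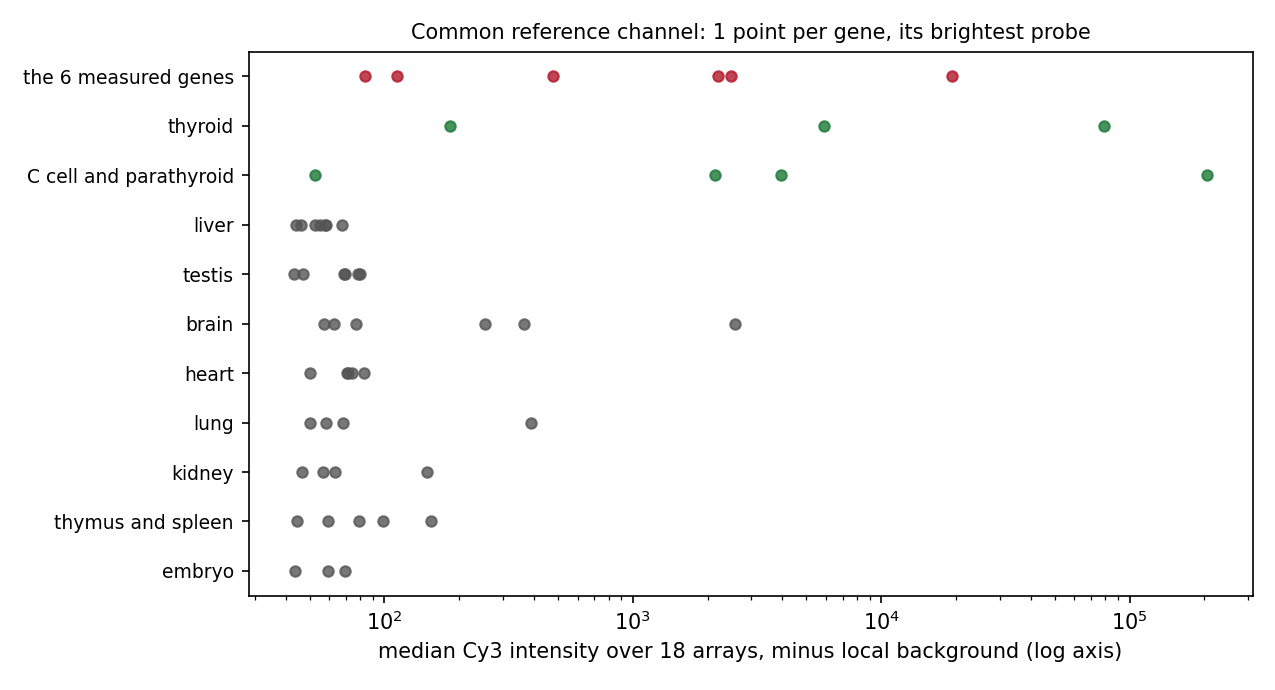
Median Cy3 intensity over 18 arrays (log axis), 1 point per gene at its brightest probe, for the 6 measured thyrocyte genes, for thyroid, C cell and parathyroid genes and for genes of tissues listed in the reference label. Tg and Pth lie at 79100 and 2142, while liver, testis, heart and embryonic genes all lie at or under 82.5.

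Probes carrying the same gene name differed in signal, and the sequences below show which oligonucleotides stood for each gene. Probes are 60-base oligonucleotides, and the position of each whole probe is that in the files, on mm7. Those that were above background in Cy5 on no array are printed whole, the others by their first 30 bases, all in lower case 5′ to 3′.
Hhex, chr19:37141162-37141221 (+ strand), above background on 18 arrays: tctcacacgaactagaaatagcaggacaat
Hhex, chr19:37137914-37137973 (+ strand), on 0 arrays: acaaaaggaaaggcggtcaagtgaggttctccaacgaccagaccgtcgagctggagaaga
Pax8, chr2:24428576-24428635 (- strand), on 12 arrays: ggagttccaggaaacaagaaccacccattt
Pax8, chr2:24479992-24480051 (- strand), on 1 array: agaaaggtctcaacatctttacagctttat
Tshr, chr12:89019706-89019765 (+ strand), on 9 arrays: ccttgtaaaggaaaggctacgctagtcaca
Tshr, chr12:88986427-88988862 (+ strand), on 0 arrays: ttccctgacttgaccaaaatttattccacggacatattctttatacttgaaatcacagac
Kcnq1, chr7:139854115-139854174 (+ strand), on 18 arrays: gaccaatgctcagactccagcctctttcac
Kcnq1 by name, chr7:139684939-139684998 (- strand), on 4 arrays: tgccaagtccgtctgtatttctaaataact
Nkx2-1, chr12:54462492-54462551 (- strand), on 18 arrays: agttggactaaatgcctagtttttagtaac
Cdh16, chr8:103213504-103213563 (- strand), on 18 arrays: agacattatcacaggcatgtccccaaagcc
Foxe1, chr4:46358943-46359002 (+ strand), on 0 arrays: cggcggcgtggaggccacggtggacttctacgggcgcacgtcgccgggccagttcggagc
Glis3, chr19:28054217-28057750 (- strand), on 0 arrays: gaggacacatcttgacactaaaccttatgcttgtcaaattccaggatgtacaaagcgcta

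For Hhex, Pax8 and Tshr, the pair of probes with the gene's name in the files gave unequal signal, and in 3 of 3 genes the probe above background on more arrays was the one farther along in the probes' own 5′ to 3′ direction. The near Pax8 probe lists no accession that the RefSeq gene table ties to a gene, so that it measures Pax8 rests on the name in the files. The distance between the 2 probes was 3248 bases for Hhex, 51416 for Pax8 and 32091 for Tshr on the genome. Median Cy5 intensities over 18 arrays were 3048 at the far and 62.0 at the near Hhex probe. They were 94.5 and 48.4 for Pax8 and 97.1 and 47.5 for Tshr. The same order was common on the arrays: among 5545 other genes with exactly 2 probes in the same orientation, the far probe was above background on more arrays in 3050 and the near probe in 1108, which is 73.4% of the unequal pairs. The Tshr and Glis3 probes that were never above background cover 2436 and 3534 bases of the genome, more than their own length.

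The second probe named Kcnq1 lies on the opposite strand from the first. The accessions that the files list for it belong, in the RefSeq gene table, to Kcnq1ot1, a long antisense RNA transcribed within the Kcnq1 locus, so it was not read as a measure of the channel gene. It exceeded background in Cy5 on dissected central 5 (304), dissected peripheral 5 (279), normal central 5 (173) and normal peripheral 2 (122). The first 3 of these are the 3 arrays of 1 slide.

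Foxe1, a forkhead factor required for thyroid bud migration, was not well above background in Cy5 on any of 18 arrays, with intensities of 31.1 to 131. In Cy3 its probe was above background on 11 arrays, with intensities of 61.7 to 112 over all 18. The Foxe1 probe had the highest GC content of the 13, at 75%. Glis3, a zinc finger factor needed for thyroid hormone production, had Cy5 intensities of 16.9 to 96.3, and Kcne2, a regulatory subunit of the Kcnq1 channel, 18.7 to 104. The Kcne2 probe (chr16:92348256-92348315 on mm7) passed background only on normal central 2, at 92.8. No difference between groups can be given for these 3 genes, and a signal under background is not evidence that they were silent.

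**Figure D2:**
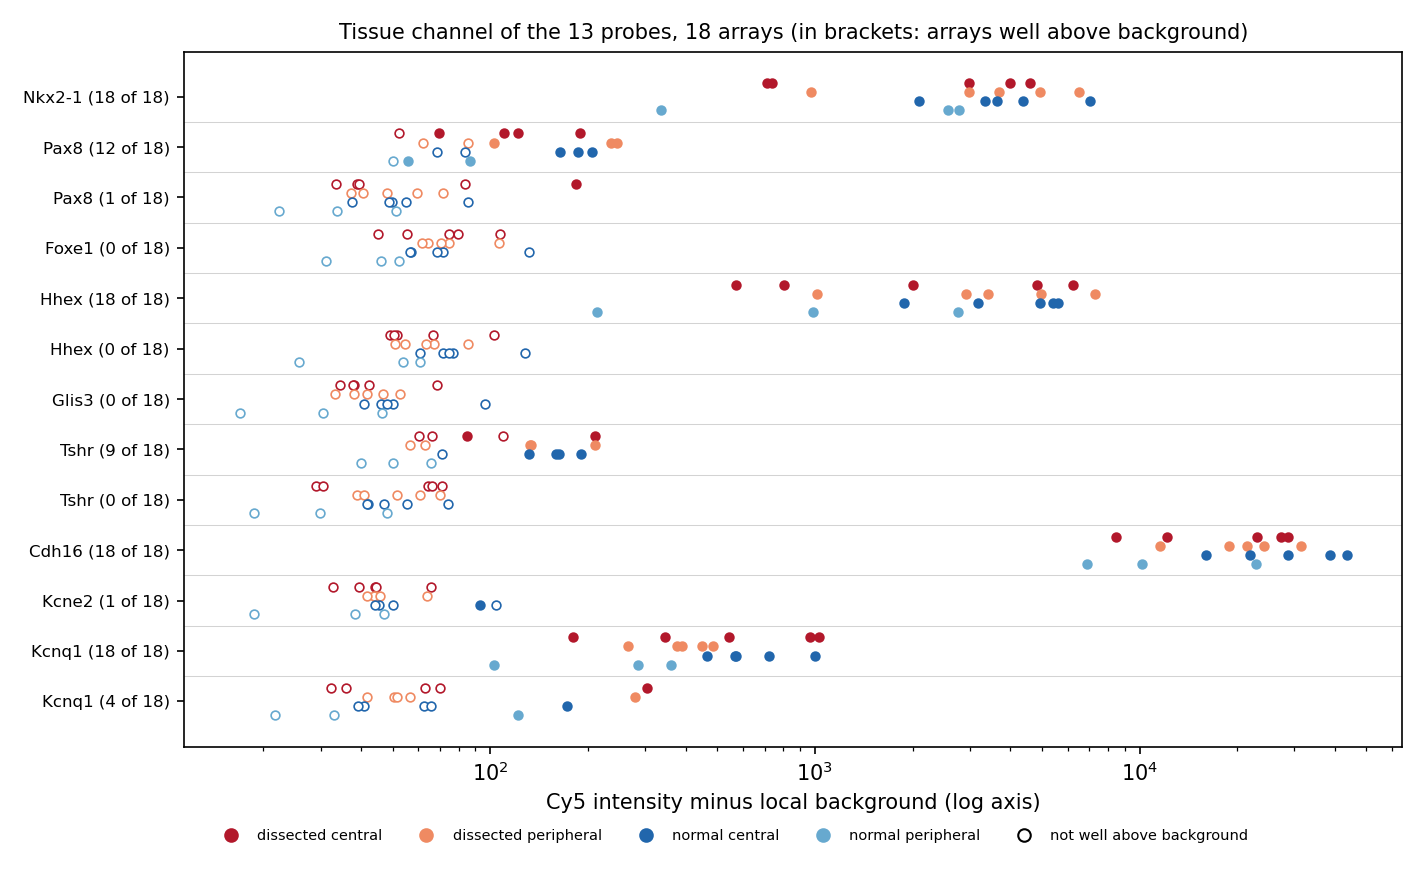
Cy5 intensity minus local background (log axis) of the 13 probes on 18 arrays, 1 point per array and coloured by group, filled where the spot was well above background. Nkx2-1, the far Hhex probe, Cdh16 and the first Kcnq1 probe are filled on 18 of 18 arrays, and Foxe1, Glis3, the near Hhex probe and 1 Tshr probe on 0.

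None of the 6 measured genes passed the test in any comparison. In limma with Benjamini-Hochberg adjustment over 14664 genes, 0 of 6 were called (adjusted p under 0.05) for dissected against normal in the central area, where 0% of all genes were called, and 0 of 6 in the peripheral area, also 0% of all genes. For central against peripheral, 0 of 6 were called in dissected thyroid, against 0.586% of all genes, and 0 of 6 in normal thyroid, against 0.28%. The F test among the 4 groups called 0 of 6, against 1.06% of all genes, and the interaction of dissection with area 0 of 6, against 0%. At an unadjusted p under 0.05 there were 0 of 6 for dissection in the central area (5.24% of all genes), 1 of 6 in the peripheral area (8.35%), 1 of 6 between areas in dissected thyroid (7.43%) and 0 of 6 in normal thyroid (8.59%). For the interaction there were 0 of 6 (5.82%) and for the F test 1 of 6 (8.93%), which was Kcnq1. No member had groups without overlap, that is 0 of 6 each for dissection in the central area (1% of all genes) and in the peripheral area (4.21%) and between the areas of dissected (1.67%) and of normal thyroid (4.86%). Without the 4 weak arrays, and with any single array left out, the counts called at the adjusted threshold stayed at 0.

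The precision of these comparisons was limited. The 95% confidence intervals of member differences reached 0.34 to 0.52 on the log2 scale either side of the estimate where both groups had 5 arrays, and 0.40 to 0.59 where normal peripheral was involved. These widths are not the limit of the adjusted test, which asks for more. A gene that missed the threshold was not shown to be equal between groups. In these bulk samples fewer thyrocytes and less RNA per thyrocyte cannot be told apart.

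**Figure D3:**
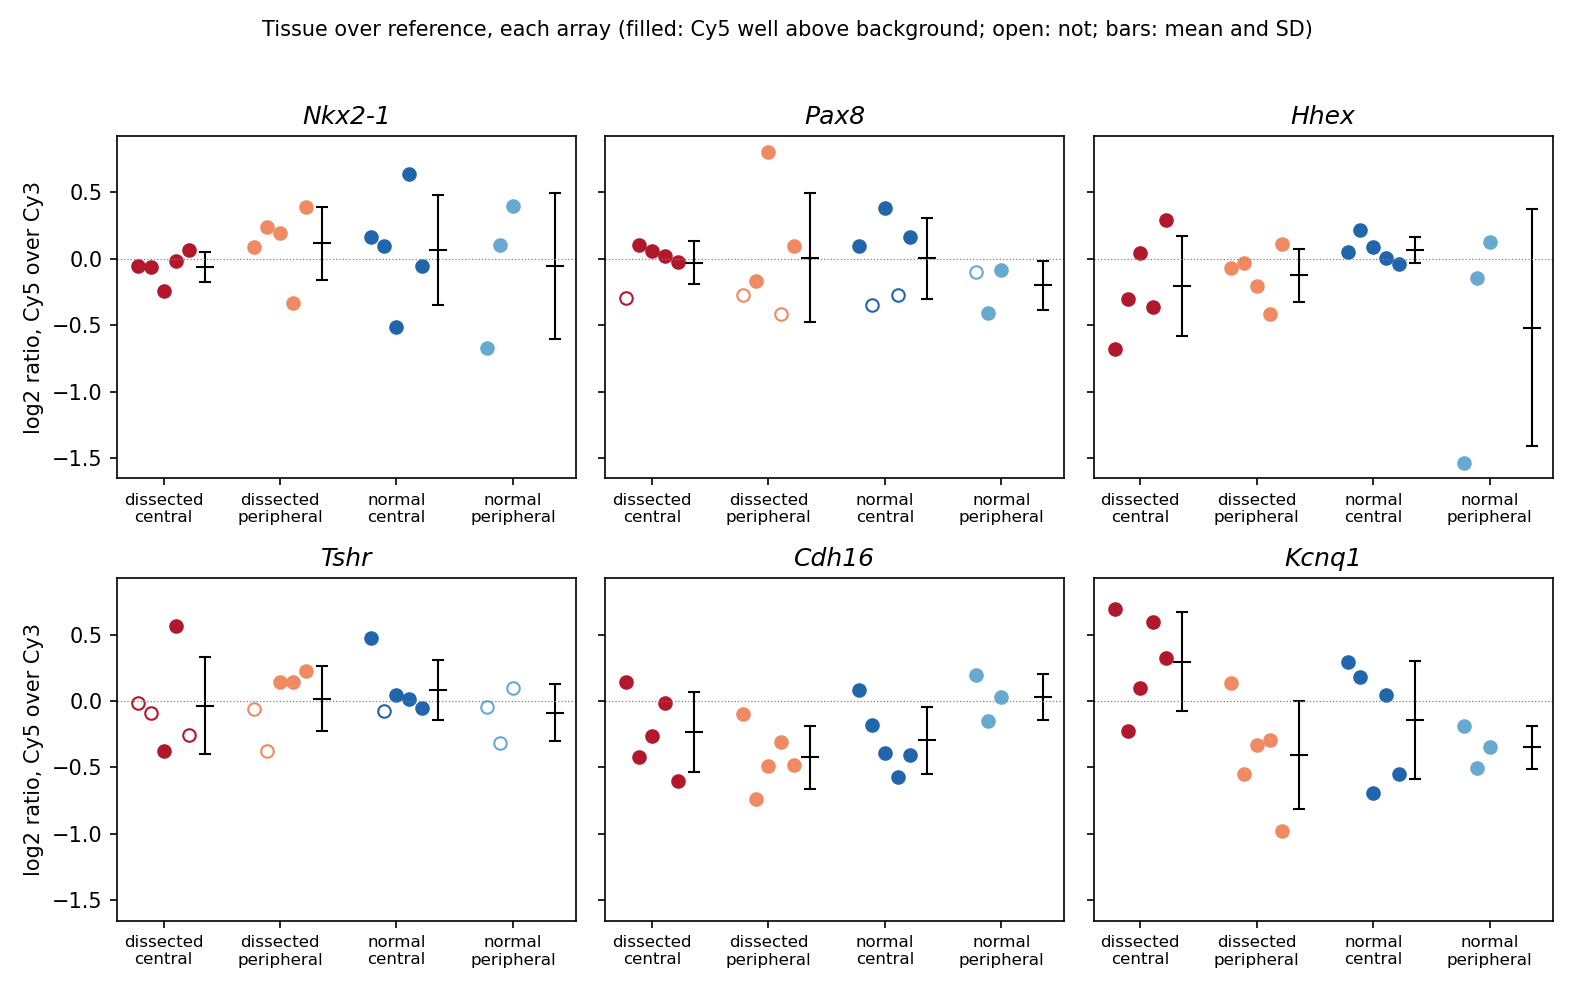
Log2 ratio of Cy5 over Cy3 on each array for the 6 measured genes, with mean and SD of each group (n = 5, 5, 5 and 3) and open points where Cy5 was not well above background. The groups overlap for every gene, and the lowest point is Hhex on normal peripheral 1 at -1.54.

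Among the transcription factors, Nkx2-1 had a probe that was spotted 10 times on each array, so its spot error could be measured. The SD between spots of 1 array was 0.022 to 0.072 on the log2 scale, against an SD of 0.32 between the 18 arrays, so differences between arrays were well above spot error. In dissected central arrays its log2 ratios were -0.06, -0.06, -0.24, -0.01 and 0.07, and in dissected peripheral arrays 0.09, 0.24, 0.19, -0.33 and 0.39. In normal central arrays they were 0.16, 0.10, -0.51, 0.64 and -0.06, and in normal peripheral arrays -0.67, 0.11 and 0.40. The lowest and highest values both came from normal thyroid, and each of the 4 groups held values on both sides of 0. The difference after dissection was -0.13 in the central area (SE 0.21, limma adjusted p = 0.998) and 0.17 in the peripheral area (SE 0.24, adjusted p = 0.891). The peripheral value turned to -0.14 without normal peripheral 1, a weak array.

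Pax8, the paired-box partner of Nkx2-1 at thyroid promoters, was dim. It was above background on 4 of 5 dissected central, 3 of 5 dissected peripheral, 3 of 5 normal central and 2 of 3 normal peripheral arrays. Group means of the log2 ratio were -0.03 ± 0.16 in dissected central, 0.01 ± 0.48 in dissected peripheral, 0.00 ± 0.31 in normal central and -0.20 ± 0.18 in normal peripheral arrays (SD, n = 5, 5, 5 and 3). The highest single value was 0.81 on dissected peripheral 3, and the next highest 0.38 on normal central 3. Differences were -0.03 after dissection in the central area and 0.21 in the peripheral area (limma adjusted p = 0.998 and 0.849).

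Hhex, a homeobox factor of the thyroid bud, had the widest range of the 6. In dissected central arrays its log2 ratios were -0.68, -0.30, 0.05, -0.37 and 0.29, and in dissected peripheral arrays -0.07, -0.03, -0.20, -0.42 and 0.11. In normal central arrays they were 0.05, 0.22, 0.09, 0.00 and -0.04, and in normal peripheral arrays -1.54, -0.15 and 0.13. The 5 normal central arrays were thus close together, and 1 normal peripheral array lay far under all others. In normal thyroid the central area exceeded the peripheral by 0.58 (SE 0.28, limma adjusted p = 0.594), and 1 array decided that value: without normal peripheral 1 the difference was 0.07. The change after dissection in the peripheral area, 0.40 (SE 0.28, adjusted p = 0.733), became -0.11 without that array. In the central area Hhex differed by -0.27 after dissection (SE 0.24, adjusted p = 0.998), and was lower on 4 of 5 slides when the dissected and the normal array of 1 slide were compared. Dissected central 1 and 2 were weak arrays, however, and without the 4 weak arrays the difference was -0.07.

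The surface genes came next. Tshr, which receives the thyrotropin signal, was above background on 2 of 5 dissected central, 3 of 5 dissected peripheral, 4 of 5 normal central and 0 of 3 normal peripheral arrays. Its Cy5 intensities were 60.3 to 210 in dissected central and 56.8 to 210 in dissected peripheral arrays. They were 70.8 to 190 in normal central and 39.9 to 65.5 in normal peripheral arrays. These intensities are not adjusted for the brightness of each array. The median Cy5 of an array was at most 62.8 in normal peripheral, against 57.5 to 123 in normal central arrays. Log2 ratios of Tshr overlapped, at -0.32 to 0.10 in normal peripheral and -0.07 to 0.48 in normal central arrays. The intensities and the counts above background are therefore not read as a difference between groups. With 0 of 3 normal peripheral arrays above background there is only a bound for that group, and the size of comparisons with it is not read. On the log2 ratio, neither dissected against normal in the peripheral area (limma adjusted p = 0.925) nor central against peripheral in normal thyroid (adjusted p = 0.861) passed the test. In the central area the log2 ratio differed by -0.12 after dissection (SE 0.17, adjusted p = 0.998), and between areas of dissected thyroid by -0.05 (SE 0.17, adjusted p = 0.980).

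Cdh16, a cadherin of thyroid and kidney epithelium and in rat thyroid cells a target of Pax8, gave Cy5 intensities of 6900 to 43608. Its log2 ratios were -0.10, -0.74, -0.49, -0.31 and -0.48 in dissected peripheral arrays, against 0.20, -0.15 and 0.03 in normal peripheral arrays. Overlap was slight, with dissected peripheral 1 above normal peripheral 2. The difference of -0.45 (SE 0.19, 95% interval -0.85 to -0.06) had an unadjusted limma p of 0.0277 and an adjusted p of 0.574. It was below 0 on 3 of 3 slides that held both groups, from -0.59 to -0.30. With median centring of each array in place of loess, however, the difference was 0.0021, so its size depended on the normalization. In the central area the log2 ratios were 0.14, -0.42, -0.27, -0.02 and -0.60 in dissected arrays, against 0.08, -0.18, -0.39, -0.57 and -0.41 in normal arrays. These overlapped fully, with a difference of 0.06 (SE 0.16, adjusted p = 0.998). The changes in the 2 areas differed by 0.51 (SE 0.25, unadjusted p = 0.0541, adjusted p = 0.790).

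Kcnq1, the pore subunit of the thyrocyte's basolateral potassium channel, showed the smallest p of the 6 genes, between the areas of dissected thyroid. Its log2 ratios were 0.69, -0.23, 0.10, 0.60 and 0.32 in dissected central arrays, against 0.13, -0.55, -0.33, -0.29 and -0.98 in dissected peripheral arrays. Only dissected central 2 and 3 lay under the highest peripheral value, that of dissected peripheral 1. The central area exceeded the peripheral by 0.70 (SE 0.23, 95% interval 0.21 to 1.19, a 1.62-fold difference), with an unadjusted limma p of 0.00736 and an adjusted p of 0.320, rank 337 of 14664 genes. On each of 5 slides the central array was the higher, by 0.32 to 1.30. With slide as a block the estimate stayed at 0.70 (SE 0.17, unadjusted p = 0.00141, adjusted p = 0.115). The arrays of scan day 1 gave 0.66 by themselves and those of scan day 2 gave 0.73.

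In normal thyroid Kcnq1 had log2 ratios of 0.29, 0.18, -0.69, 0.05 and -0.55 in central arrays, against -0.18, -0.51 and -0.35 in peripheral arrays. The central area was higher by 0.20 (SE 0.27, adjusted p = 0.880) over all arrays and by 0.39 to 0.69 on the 3 slides that held both areas. With slide as a block the difference was 0.38 (SE 0.21, adjusted p = 0.566). Arrays of scan day 1 gave 0.027 by themselves and those of scan day 2 gave 0.32. After dissection the central area differed by 0.44 (SE 0.23, adjusted p = 0.977) and the peripheral area by -0.06 (SE 0.27, adjusted p = 0.979). The difference between these changes was 0.50 (SE 0.35, adjusted p = 0.800), so the areas were not shown to differ in their response.

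**Figure D4:**
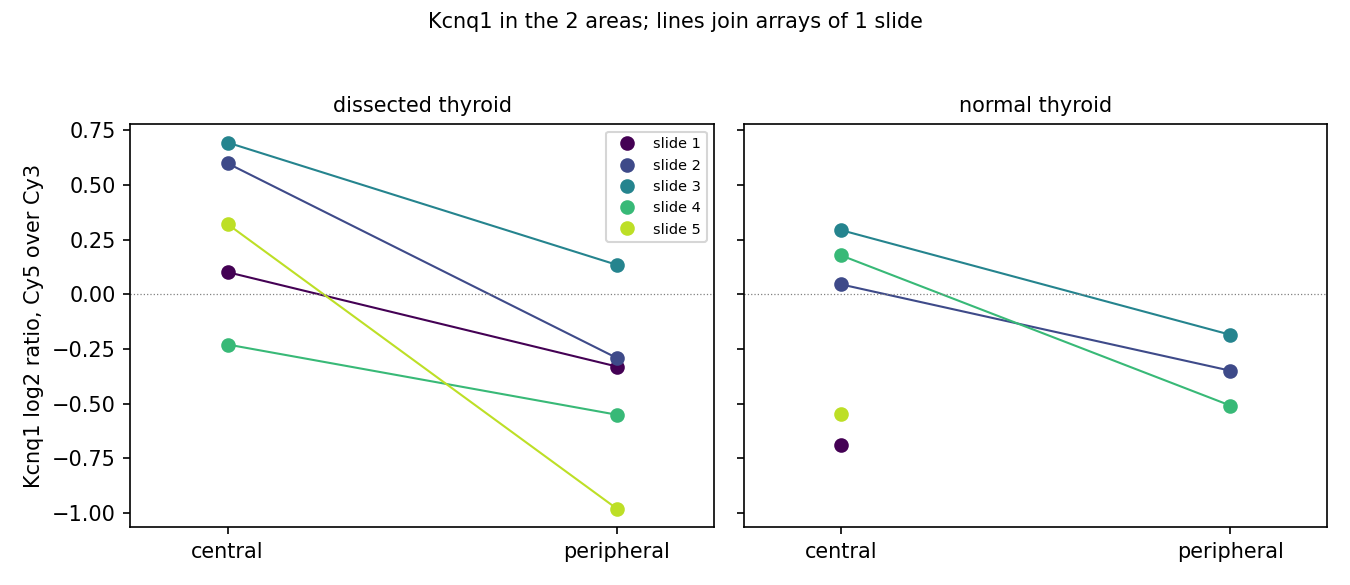
Log2 ratio of Kcnq1 (Cy5 over Cy3) on central and peripheral arrays of dissected and of normal thyroid, with lines joining arrays of the same slide. Every line falls towards the peripheral area, by 0.32 to 1.30 on 5 slides in dissected and 0.39 to 0.69 on 3 slides in normal thyroid.

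C cell markers moved with this comparison. C cells, the calcitonin-producing neuroendocrine cells of the thyroid, lie mainly in the centre of the lobe. The mean log2 ratio of their 9 measured markers of 10 listed was -1.27 to 1.17 in dissected central arrays, against -2.55 to -2.18 in dissected peripheral arrays. Summed normalized Cy5 of these markers was 182646 to 499282 in dissected central 2 to 5 and 71565 to 143536 in dissected peripheral arrays. On dissected central 1 the spot of Calca, the calcitonin gene, was left out as non-uniform, and the sum without it was 39168. Called higher in the central area were 8 of the 9 in dissected thyroid, among them Calca at 4.50 on the log2 scale (without dissected central 1), and 6 in normal thyroid. The Calca probe behind the 4.50 ran from 18180 to 493994 in Cy3 over the arrays. Its Cy3 intensity was 18180 to 204837 in dissected central 2 to 5, against 259070 to 415327 in dissected peripheral arrays. The 4.50 is therefore not a difference in Cy5 alone. The other Calca probe had Cy3 intensities of 8033 to 28960. Its log2 ratios were -2.32 to 1.38 in dissected central and -4.82 to -3.32 in dissected peripheral arrays. Across 18 arrays Kcnq1 and the C cell mean correlated at 0.446. Over all 54 pairs of a member and a marker list the correlations ran from -0.563 (Nkx2-1 with airway markers) to that value, and 5 lay farther from 0. Within groups the relation of the 2 was not uniform. Dissected central 2 had the lowest C cell mean (-1.27) and the lowest Kcnq1 ratio (-0.23) of its group. On normal peripheral 1 to 3 the C cell means were -1.02, -1.81 and -1.68. The Kcnq1 ratios there were -0.18, -0.51 and -0.35, in the same order. In contrast, dissected peripheral 5 had the highest C cell mean (-2.18) and the lowest Kcnq1 ratio (-0.98) of its group, as did normal central 3 (1.66 and -0.69). Dissected central 1, high in airway markers, had the highest Kcnq1 ratio of the 18 arrays. Their part in the Kcnq1 difference was not tested.

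**Figure D5:**
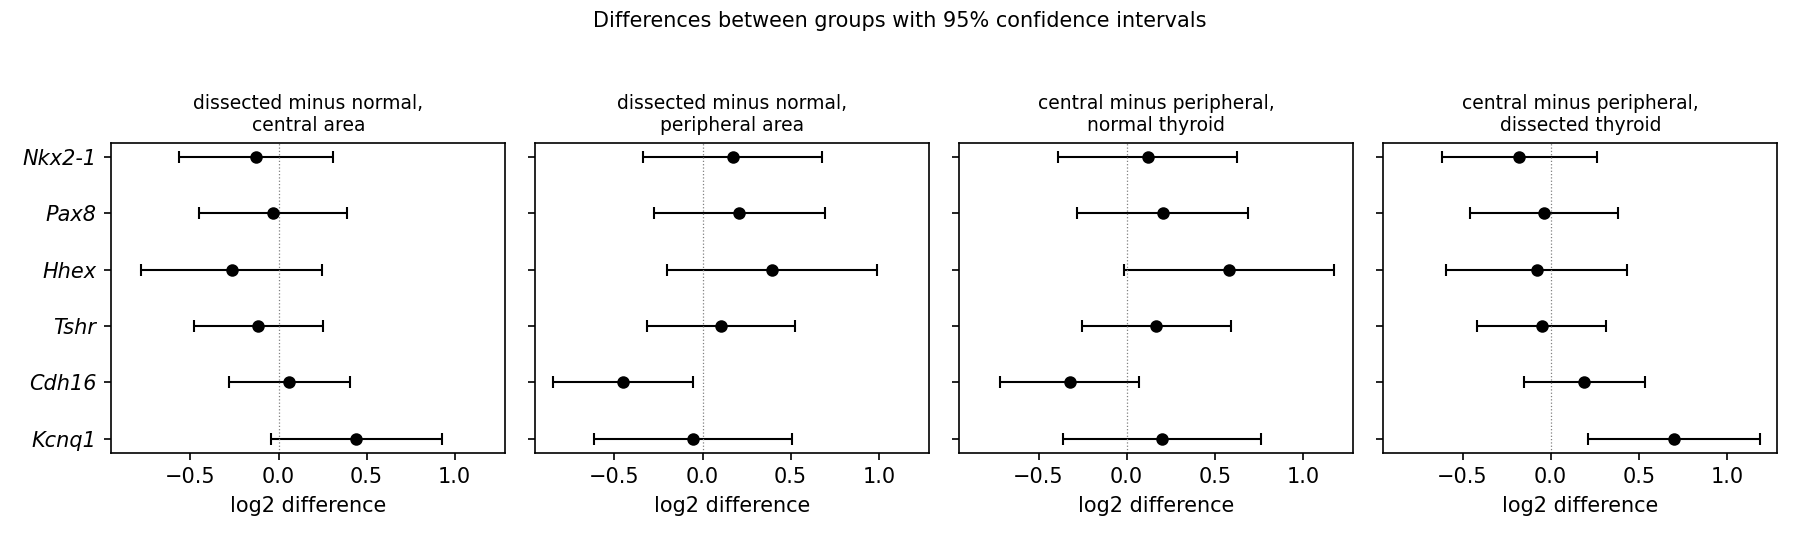
Log2 differences of the 6 measured genes in 4 comparisons, with 95% confidence intervals from the limma fit over 18 arrays. Of the 24 intervals, 2 do not include 0: Kcnq1 between the areas of dissected thyroid (0.70) and Cdh16 after dissection in the peripheral area (-0.45). Tshr intervals that involve normal peripheral arrays rest there on signal not well above background, and their size is not read.

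The 6 genes did not move as a block. Over 18 arrays, pairwise Pearson correlations of their log2 ratios ran from -0.52 (Hhex with Cdh16) to 0.57 (Nkx2-1 with Hhex) over 15 pairs. Normal peripheral 1, low for both factors, carried much of the last, which was 0.27 without it. SDs within groups were 0.25 for Cdh16 to 0.41 for Hhex, against a median of 0.32 over all genes. Medians of the 6 differences were -0.07 for dissection in the central area, 0.14 for dissection in the peripheral area, -0.04 between areas of dissected and 0.19 between areas of normal thyroid, with medians over all genes of -0.01 to 0.01. Member medians that involve normal peripheral arrays include Tshr, whose signal there was not well above background.

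For the 4 members above background on all arrays, the genes with the most similar log2 ratios among 7112 candidates were named as a description over 18 arrays, which share one reference RNA and differ in signal strength. As the highest of 7112 values, these correlations are raised by the choice itself, to an extent not tested. Nkx2-1 was closest to Taf4 (r = 0.769), Arl10 (0.751) and Kiz (0.741), and without the 4 weak arrays these values were 0.647, 0.653 and 0.638. Hhex was closest to a probe without a gene symbol (0.922), Atp5h (0.920) and Eef1b2 (0.910), and without the 4 weak arrays these values were 0.573, 0.557 and 0.523. Cdh16 was closest to Prpsap1 (0.818), to a probe without a current symbol (0.777) and to Lrrc1 (0.760). Kcnq1 was closest to Fbp1 (0.759), Morn4 (0.758) and Ak7 (0.719). Without the 4 weak arrays the values for Cdh16 and Kcnq1 were 0.692 to 0.814.

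Genes around these members were followed by lists. Of the 14 genes of hormone synthesis, the usual targets of Nkx2-1 and Pax8, 13 were measured and 0 were called in any of the 4 comparisons. After dissection 7 of 13 were above 0 in the central area (median 0.05) and 10 of 13 in the peripheral area (median 0.17). In dissected thyroid 10 of 13 were under 0 in the central against the peripheral area (median -0.23), led by Tg at -0.67 (SE 0.31, limma adjusted p = 0.667), and in normal thyroid 8 of 13 (median -0.10).

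Of 17 genes acting downstream of Tshr or as its ligands, 13 were measured and 0 called. Prkar1a, the regulatory subunit of protein kinase A, had the smallest p of this list for dissection in the central area, at -0.44 (SE 0.19, limma adjusted p = 0.889). It also led the list between areas of normal thyroid, at 0.54 (SE 0.22, adjusted p = 0.490). Both comparisons share the normal central arrays. Of 7 partners of the Kcnq1 channel, 5 were measured and 0 called. Kcne3, a regulatory subunit, was 0.40 higher in the central than in the peripheral area of dissected thyroid (SE 0.22, adjusted p = 0.760). Of 14 paralogs of the members only Pax2, Glis1 and Glis2 were measured, and 0 were called.

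Of 15 further genes of thyroid development, 13 were measured and 1 was called. Foxa2, a forkhead factor of the foregut endoderm, was 3.14 higher on the log2 scale in the central than in the peripheral area of dissected thyroid (SE 0.44, limma adjusted p = 0.00244) and 3.05 higher in normal thyroid (SE 0.51, adjusted p = 0.0217). With 1 array left out at a time the call held in 18 of 18 fits in dissected thyroid (adjusted p at most 0.0111) but in 13 of 18 in normal thyroid, with differences of 2.73 to 3.47. It was lost there without normal central 1 (adjusted p = 0.0518), 3 (0.0778) or 4 (0.0602) and without normal peripheral 2 (0.0820) or 3 (0.155). In normal thyroid it was also lost with no filter (adjusted p = 0.0686), with slide (0.0534) or replicate number (0.0658) as a block, and on scan day 2 alone (0.702), where the dissected call was lost too (0.674). The related Foxa1 differed by 0.56 (SE 0.17, adjusted p = 0.232) and 0.53 (SE 0.19, adjusted p = 0.416). The C cell markers moved in the same direction in both comparisons, and their part was not tested. After dissection Foxa2 differed by -0.86 in the central area (SE 0.44, adjusted p = 0.958) and by -0.96 in the peripheral area (SE 0.51, adjusted p = 0.628). All 9 measured C cell markers were likewise under 0 after dissection in both areas, with 0 called. Their median was -0.72 in the central and -0.89 in the peripheral area, and their part in the Foxa2 values was not tested.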

How the data were processed

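The deposited scanner files hold mean spot intensity and local background intensity in Cy5 (captured thyroid) and Cy3 (common reference), from Agilent Feature Extraction 9.5.1.1 per the file headers, while the submitters' processing notes name 8.5.1.1. The log10 ratio in the same files is that program's own output per the file headers. A further deposited table holds linear ratios, with no step given in the sources used here. Probe by probe after centring, it followed the log ratio of the files at correlations of 0.995 to 1.00 over arrays, which gives its direction and scale. Its array medians were 0.871 to 1.06.

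Each array held 45018 spots, 1639 of them controls. Intensities were corrected with normexp (offset 50) and normalized within arrays by loess, with control spots at weight 0, in limma 3.58.1 under R 4.3.3 (with data.table, version 1.17.8). Non-uniform spots, at most 108 on an array, were left out, saturated spots were kept, and spots of a probe were averaged. Probes were named by accession (22951), current symbol (6659) or older symbol (3109) through a RefSeq table of GRCm38.p6, and 8455 kept the name in the files. The filter kept 19082 of 41174 probes, and the brightest kept probe stood for its gene (14664 genes). All 18 arrays entered 1 model with a mean for each of the 4 groups, followed by eBayes and Benjamini-Hochberg adjustment over all genes. All tests are two-sided. The number of arrays limits the precision. Summed Cy5 of marker lists was taken after loess and normalization between arrays on average intensity.

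The 9 members, the gene lists and the marker lists were chosen with earlier results of these data known. From the lists, genes called in a comparison, or otherwise those with the smallest p, were eligible to be named, up to 3 per list, and some of these results are not reported here. For likeness of pattern the 3 genes with the highest correlation were named. Probes of the transcription termination factor gene Ttf1 are not Nkx2-1 and were left out. No genome of the build mm7 was used, so the exon under a probe was not determined. The fit was tested on simulated data. Alternatives were other normalizations, Cy5 alone, other filters and probe rules, slide, scan day or replicate number as a block, each scan day alone, the authors' table, only the groups compared, single arrays left out and, added after seeing the data, the weak arrays left out. Foxa2 was followed through the same alternatives after its values were seen.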

Additional observations from a re-analysis of the deposited data

Results flagged for a closer look

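In 2 of 21 groups of 5 arrays tested among the probes that passed the filter, 1 array lay far from the others, where chance would flag about 1 in 20. The Tshr log2 ratio on normal central 1 was 0.48, against -0.07 to 0.04 on the other 4 normal central arrays. The probe named Kcnq1 that the RefSeq table ties to Kcnq1ot1 had a log2 ratio of 1.22 on dissected central 5, against -0.17 to 0.03 on the other 4. On those 4 dissected central arrays this probe was not well above background in Cy5, so their ratios rest on background signal.

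Signal also appeared in the reference channel, which no comparison above uses on its own. Over the 18 arrays the median Cy3 intensity was 79100 for Tg and 2142 for Pth, although the label of the reference lists neither thyroid nor parathyroid. The cause was not tested.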

How the results depend on the processing

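Across 939 refits of single differences, 0 reached an adjusted p under 0.05, and the counts of members called stayed at 0 in all 6 tests under every alternative. Signs turned in 36 of 399 refits with another setting and in 20 of 540 with an array left out, mostly for values near 0, and the cause was not tested. Median centring gave Cdh16 -0.094 for dissection in the central area, 0.0021 in the peripheral area, 0.15 between areas of normal thyroid and -0.10 for the difference between changes, Pax8 0.047 for dissection in the central area and 0.018 between areas of dissected thyroid, and, for dissection in the peripheral area, Tshr -0.029 and Kcnq1 0.14. Cy5 alone gave Pax8 0.014 for dissection in the central area, Cdh16 0.0078 between areas of normal thyroid and Tshr 0.065 between areas of dissected thyroid. That last Tshr value was 0.034 with the Agilent log ratio and 0.058 in the authors' table, which does not list the Nkx2-1 probe. Averaging the kept probes, which mixes in the Kcnq1ot1 probe, gave Kcnq1 -0.062 between areas of normal thyroid. For dissection in the peripheral area Kcnq1 was 0.12 with the slide block, 0.027 in the authors' table and 0.039 on scan day 1 alone. Scan day 1 alone, with 1 normal peripheral array whose spread was taken from the other groups, also gave Tshr 0.068 for dissection in the central area. For dissection in the peripheral area it gave Nkx2-1 -0.47 and Hhex -0.44. Between areas of normal thyroid it gave Tshr -0.073, Nkx2-1 -0.34 and Hhex -0.083, and Hhex 0.15 between areas of dissected thyroid. For the difference between changes it gave Tshr 0.023, Nkx2-1 0.28 and Hhex 0.23. Scan day 2 alone gave Cdh16 -0.12 for dissection in the central area and Pax8 0.043 between areas of dissected thyroid. Without the 4 weak arrays, for dissection in the central area Cdh16 was -0.00046 and Pax8 0.015, and in the peripheral area Nkx2-1 and Hhex were both -0.13. Between areas Nkx2-1 was -0.19 in normal and Hhex 0.13 in dissected thyroid, and the difference between changes was 0.052 for Hhex.

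Leaving out 1 array at a time turned signs as follows. For dissection in the central area the ranges were -0.032 to 0.16 for Cdh16, -0.12 to 0.062 for Pax8 and -0.27 to 0.016 for Nkx2-1. In the peripheral area they were -0.011 to 0.20 for Tshr, -0.19 to 0.088 for Kcnq1, -0.14 to 0.40 for Nkx2-1 and -0.11 to 0.72 for Hhex. Between areas they were -0.19 to 0.35 for Nkx2-1 in normal thyroid and, in dissected thyroid, -0.20 to 0.035 for Tshr, -0.14 to 0.16 for Pax8 and -0.20 to 0.040 for Hhex. The difference between changes ran from -0.53 to 0.0082 for Nkx2-1. The lowest values of Nkx2-1 and Hhex for dissection in the peripheral area came without normal peripheral 1. Tshr values that involve normal peripheral arrays rest there on signal not well above background. Their sign is not read, although their turns are in the counts and among the values above. Kcnq1 between areas of dissected thyroid stayed at 0.56 to 0.83, with unadjusted p of 0.00234 to 0.0268.

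Same-numbered arrays of different groups correlated in their deviations over 0.1 in 9 of 24 pairs (-0.07 to 0.29). Among arrays of different numbers this held in 7 of 96 pairs (-0.24 to 0.14). In the other groups, 13 of 18 arrays matched their own number best and 14 of 18 an array of their own slide. Arrays of the same number shared a slide, except normal peripheral 3, so number and slide can hardly be told apart. The labels do not say that the numbers pair samples, and the main model has no block for this shared variation. With the replicate block the counts called stayed at 0, and Kcnq1 between areas of dissected thyroid was 0.70 (adjusted p = 0.137). For Pax8, Tshr and the 3 undetected genes, signal close to background limits what these arrays can show.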

Other observations

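Although 1 common reference was used on every array, the Cy3 intensity of the members varied. The highest Cy3 value over 18 arrays exceeded the lowest 4.47-fold for Nkx2-1, 4.34-fold for Hhex, 2.52-fold for Kcnq1, 2.27-fold for Tshr, 2.19-fold for Cdh16 and 2.06-fold for Pax8. In Cy5 the corresponding ratios were 21.0 for Nkx2-1, 34.1 for Hhex, 10.0 for Kcnq1, 5.27 for Tshr, 6.32 for Cdh16 and 4.89 for Pax8.

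Among the 4060 other genes whose 2 probes lay at least 1000 bases apart on the genome, the probe farther in the 5′ to 3′ direction was above background on more arrays in 2414 and the nearer one in 780, or 75.6% of unequal pairs.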
